A study of Mus musculus with 8 samples.

Results

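The immediate early genes examined here were Fos, Fosb, Jun, Junb, Jund, Egr1, Egr2, Atf3, Ier2 and Nr4a1, 10 of the 34797 gene names on the array. They were taken by name, and each was measured by 1 probe that was well above background on all 8 arrays. RNA came from common myeloid progenitors (CMPs), bone marrow precursors of granulocytes, monocytes, erythrocytes and megakaryocytes, which were sorted by flow cytometry. The mice of both ages were untreated wild-type C57BL/6J animals. The labels place the young mice at 2-3 months and the old mice at 22-24 months, whereas the description of the series gives 3-4 and 22-26 months. 4 arrays held young and 4 held old samples, called young replicates 3 to 6 and old replicates 2 to 5 after their labels. The arrays lay on 2 slides, with young replicates 3 and 4 and old replicates 2 and 4 on slide 1 and the remaining arrays on slide 2. The study describes its arrays as made from individual mice, 3 per age, without saying which of the 4 arrays per age these are, and the labels name no mice. Where arrays share a mouse, the p-values measure in part a technical spread.

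Immediate early genes are transcribed within minutes of a stimulus, without new protein synthesis. Growth factors, cytokines and stress reach them through MAP kinases, which act on ternary complex factors and serum response factor at CArG boxes, and through phosphorylated CREB at cAMP response elements. Most encode transcription factors with short-lived mRNAs. Several also respond to tissue dissociation and cell handling. In blood formation, Egr1 is known for its part in stem cell quiescence and monocyte differentiation, and the Fos and Jun proteins, which pair to form the factor AP-1, are known for their part in myeloid differentiation.

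Promoter sequences are shown for 3 genes, Egr2 and Fos because their young and old arrays did not overlap, and Atf3 because its mean differed between the ages by as much but its arrays overlapped. Each is the 150 bases before an annotated start in RefSeq, build GRCm38.p6, printed 5′ to 3′ on the strand of the gene. Capitals mark matches to the CArG box and to the half-site of the cAMP response element, TGACG, in either orientation. The printed stretches lie at chr10:67537720-67537869 on the plus strand for Egr2, which has several annotated starts, at chr12:85473740-85473889 on the plus strand for Fos, and at chr1:191183334-191183483 on the minus strand for Atf3.
Egr2: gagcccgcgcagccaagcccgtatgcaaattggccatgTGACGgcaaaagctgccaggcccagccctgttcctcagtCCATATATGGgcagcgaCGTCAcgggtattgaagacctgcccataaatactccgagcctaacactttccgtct
Fos: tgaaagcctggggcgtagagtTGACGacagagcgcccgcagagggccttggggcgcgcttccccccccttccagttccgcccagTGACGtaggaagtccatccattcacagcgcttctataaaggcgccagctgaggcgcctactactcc
Atf3: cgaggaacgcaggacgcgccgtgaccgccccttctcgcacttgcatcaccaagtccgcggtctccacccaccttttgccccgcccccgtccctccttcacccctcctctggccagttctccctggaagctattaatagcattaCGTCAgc
Of the 10 genes, 8 had an entry in this table, Egr1 and Ier2 being the ones without. Over 250 bases before the start, read on both strands, a CArG box was found for 1 of these 8 genes, Egr2, and in 1.47% of all 32851 promoters. A gene was counted when any of its windows held a match, whereas the share is per window, and the 8 genes had 12 windows, 5 of them of Egr2. A CArG box was found in 4 of the 5 Egr2 windows and the half-site in 3, and the window printed is among the 3 that hold both. Those 3 windows overlap and share the same CArG box and half-sites, so these counts repeat the same bases. The half-site TGACG was found for 6 of the 8 genes, Atf3, Fosb, Junb, Egr2, Fos and Nr4a1, and in 17.8% of all promoters. Nr4a1 held 4 half-sites and Fos held 2. The AP-1 site TGANTCA and the full palindrome TGACGTCA were found for 0 of the 8 genes, and in 6.75% and 1.55% of all promoters. Each full palindrome also holds the half-site. Sites farther than 250 bases before the start were not searched, so Fos and the other genes without a CArG box here may hold one there. These matches are letters in a window, and the arrays did not measure binding.

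Levels are given as the log2 signal of a probe minus the 75th percentile of its array, so that 0 stands for a signal at that percentile. Of the 10 genes, 9 had a higher mean in old CMPs and 1, Jun, had a lower mean. The median difference, old minus young, was 0.40 on the log2 scale, beside -0.02 over the 33432 probes tested, 46.7% of which had a higher mean in old CMPs. Egr1, Atf3 and Egr2 were the 3 genes at least 1.5-fold higher in the old mean, a size reached upwards by 3.53% of all tested probes. None was lower by that much (0 of 10), a size reached downwards by 5.4% of tested probes. A gene was called when the adjusted p-value of limma was below 0.05 and the difference at least 1.5-fold. None of the 10 genes was called (0 of 10), against 0.191% of all tested probes, or 0.159% called higher and 0.0329% called lower in old CMPs. At an unadjusted p-value of limma below 0.05, 3 of the 10 genes remained, Egr1, Egr2 and Fos, all with a higher mean in old CMPs, and 6.34% of all tested probes did, 3.61% with a higher and the rest with a lower mean. The same 3 genes were those whose arrays did not overlap between the ages, with each old array above every young array, which held for 2.86% of all tested probes (4.43% with either age above).

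**Figure D1:**
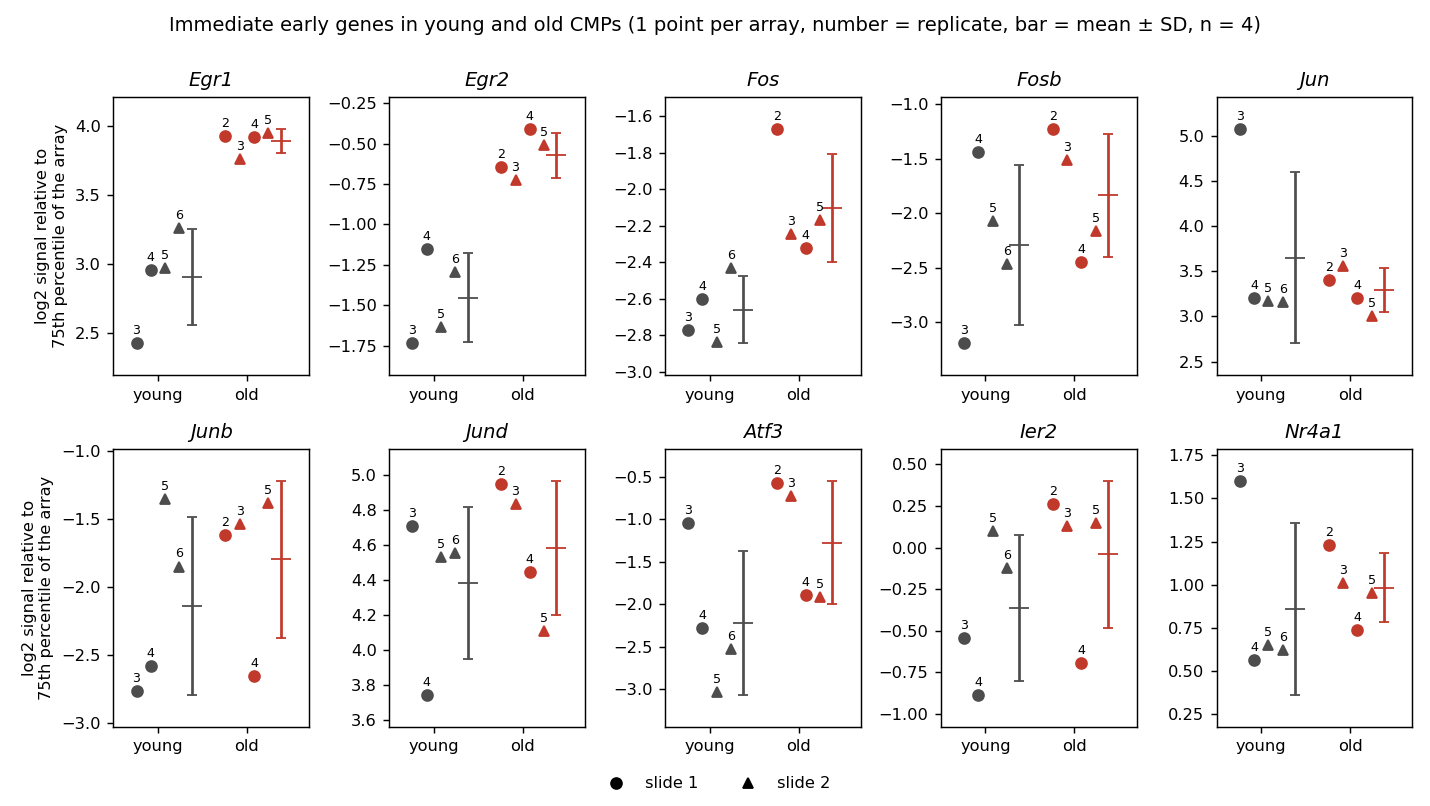
Level of each immediate early gene on each array (y axis, log2 signal relative to the 75th percentile of the array; x axis, age), with a circle for slide 1, a triangle for slide 2, the replicate number above each point and bars for mean ± SD (n = 4). The y axes differ between genes. Old arrays lie above all young arrays for Egr1, Egr2 and Fos, and for Jun young replicate 3 stands at 5.07 while the other 3 young arrays lie between 3.16 and 3.20.

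The EGR family are zinc finger factors that bind GC-rich sites. Egr1, the founding member, had levels of 2.43, 2.96, 2.97 and 3.26 on young replicates 3, 4, 5 and 6. On old replicates 2, 3, 4 and 5 its levels were 3.93, 3.76, 3.92 and 3.95. The old arrays lay close together and above all young arrays, of which young replicate 3 was the lowest. The means were 2.90 ± 0.35 in young and 3.89 ± 0.09 in old CMPs (SD, n = 4), a difference of 0.99 ± 0.20 (SE), or 1.98-fold, with a 95% interval of 0.53 to 1.44. In limma the unadjusted p-value was 0.000747 and the adjusted p-value was 0.130, so Egr1 was not called. Ordered by p-value it stood at place 191 of the 33432 probes. The difference was 1.23 within slide 1 and 0.74 within slide 2. With an intensity trend and robust variances in limma the adjusted p-value of Egr1 was 0.0461, and at that setting Egr1 was called.

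Egr2, the paralog known from macrophage and lymphoid differentiation, had levels of -1.73, -1.15, -1.63 and -1.30 on young replicates 3, 4, 5 and 6. The levels on old replicates 2, 3, 4 and 5 were -0.64, -0.72, -0.41 and -0.51. All old arrays again lay above all young arrays, and young replicate 3 was again the lowest. The means were -1.45 ± 0.28 in young and -0.57 ± 0.14 in old CMPs (SD, n = 4), so that the difference was 0.88 ± 0.19 (SE), or 1.84-fold, with a 95% interval of 0.45 to 1.31. The adjusted p-value in limma was 0.152. Within slide 1 the difference was 0.91, and within slide 2 it was 0.85, so that both slides gave nearly the same value. The Egr2 probe lies on chromosome 10 at 67004798 to 67004857 (mm9, plus strand) and begins at base 2826 of its transcript, and the Egr1 probe begins at base 2856 of its own.

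Of the FOS family, whose proteins need a JUN partner to bind DNA, Fos was measured by 10 spots of its probe on each array. The probe lies on chromosome 12 at 86817900 to 86817959 (mm9, plus strand). Its levels were -2.77, -2.60, -2.84 and -2.43 on young replicates 3, 4, 5 and 6, and -1.67, -2.25, -2.32 and -2.17 on old replicates 2, 3, 4 and 5. Old replicate 2 was the highest, and the other old arrays lay just above young replicate 6. The means were -2.66 ± 0.18 in young and -2.10 ± 0.29 in old CMPs (SD, n = 4), a difference of 0.56 ± 0.20 (SE), or 1.47-fold, with a 95% interval of 0.11 to 1.01 and an adjusted p-value in limma of 0.570. The SD between the spots of an array ran from 0.0819 to 0.253. When 4 Fos spots that the scanner software had marked as outliers were kept, 2 of them on young replicate 6, that array stood at -2.29, above old replicate 4 at -2.32, and the groups overlapped. With normexp background correction the difference of Fos was 0.35.

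Fosb, the relative that is induced together with Fos, had levels of -3.19, -1.44, -2.07 and -2.47 on young replicates 3, 4, 5 and 6. On old replicates 2, 3, 4 and 5 the levels were -1.23, -1.51, -2.44 and -2.16. The ages overlapped widely, with young replicate 4 above 3 of the 4 old arrays. The difference of 0.46 ± 0.39 (SE) had a 95% interval of -0.42 to 1.33 and an adjusted p-value in limma of 0.998. Without young replicate 3 the difference was 0.16.

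**Figure D2:**
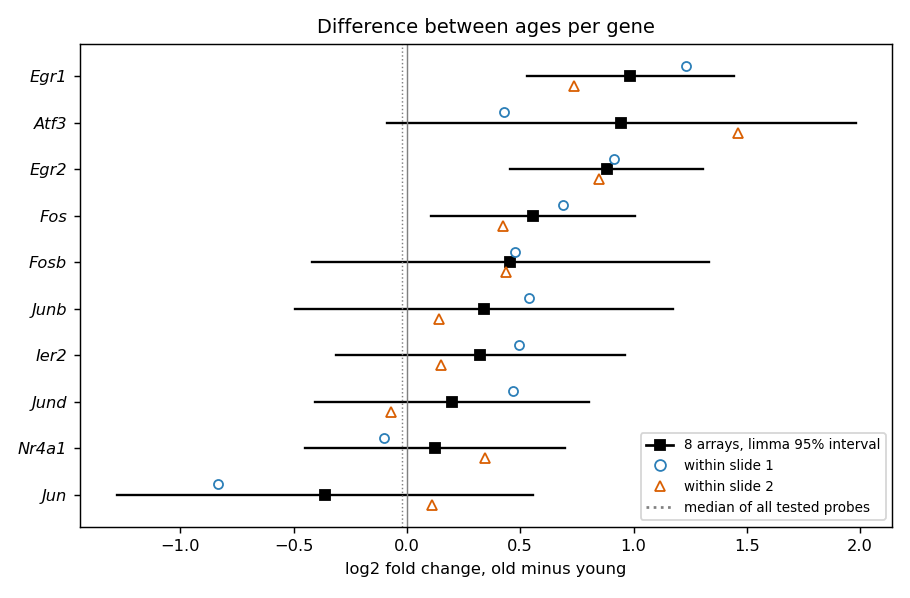
Difference between ages for each gene (x axis, log2 fold change, old minus young; y axis, genes ordered by it), with squares and lines for the estimate and 95% interval of limma over 8 arrays, circles and triangles for the difference within slide 1 and slide 2, and a dotted line at -0.02 for the median of all tested probes. The intervals of Egr1, Egr2 and Fos lie above 0, and those of the other 7 genes include 0.

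Among the JUN proteins, which dimerise with each other and with FOS and ATF proteins, Jun is the best known activator. Its probe lies on chromosome 4 at 94716928 to 94716987 (mm9, minus strand). Jun stood at 5.07, 3.20, 3.17 and 3.16 on young replicates 3, 4, 5 and 6, and at 3.40, 3.56, 3.20 and 3.00 on old replicates 2, 3, 4 and 5. The single array of young replicate 3 was far above the 7 others, which spanned both ages. The mean was 3.65 ± 0.95 in young and 3.29 ± 0.24 in old CMPs (SD, n = 4), and the difference of -0.36 ± 0.41 (SE) had a 95% interval of -1.28 to 0.56 and an adjusted p-value in limma of 0.998. Without young replicate 3 the difference was 0.11 in the other direction. The young SD of Jun exceeded that of 96.6% of the tested probes, and its old SD that of 32.7%. Among all tested probes, 1 of the 4 young arrays stood apart from the other 3 by Dixon's criterion, the gap over the range at a critical value of 0.829, for 5.5%, 1 of the 4 old arrays did so for 4.58%, and young replicate 3 was the array apart and the highest for 0.891%. Of the 10 genes, the last held for 2, Jun and Nr4a1.

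Junb, which often opposes Jun and restrains myeloid proliferation, had levels of -2.77, -2.58, -1.35 and -1.85 on young replicates 3, 4, 5 and 6. On old replicates 2, 3, 4 and 5 it had levels of -1.62, -1.53, -2.65 and -1.38. The low arrays were both young arrays and 1 old array of slide 1, and all 4 arrays of slide 2 were high, together with old replicate 2 of slide 1. The difference between ages was 0.34 ± 0.37 (SE) with a 95% interval of -0.50 to 1.18. It was 0.13 without young replicate 3 and 0.63 without old replicate 4. The difference of slide 2 minus slide 1, in a fit with age, was 0.87 ± 0.26 (SE) with a 95% interval of 0.28 to 1.46, from means of -2.40 on slide 1 and -1.53 on slide 2. Its unadjusted p-value in limma was 0.00860 and its adjusted p-value 0.803, and with normexp background correction the slide difference was 0.53. Of the 10 genes, 0 were called between slides and 1, Junb, had an unadjusted p-value of limma below 0.05, beside 0% and 5.59% of all tested probes. A lower mean on slide 2 was found for 5 of the 10 genes and for 48.8% of tested probes.

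Jund, the family member that is expressed at rest in many cells, had levels of 4.71, 3.74, 4.53 and 4.55 on young replicates 3, 4, 5 and 6. Its levels on old replicates 2, 3, 4 and 5 were 4.94, 4.83, 4.44 and 4.11. Young replicate 4 was the lowest array, and the ages otherwise shared a range. The difference was 0.20 ± 0.27 (SE), with a 95% interval of -0.41 to 0.81, and was -0.013 without young replicate 4.

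Atf3, a stress-induced bZIP factor that mostly represses transcription, had levels of -1.04, -2.28, -3.03 and -2.52 on young replicates 3, 4, 5 and 6. The old arrays stood at -0.57, -0.72, -1.89 and -1.91 for replicates 2, 3, 4 and 5. Old replicates 2 and 3 were the highest of the 8 arrays, and young replicate 3 lay between them and old replicates 4 and 5. Its means were -2.22 ± 0.85 in young and -1.27 ± 0.73 in old CMPs (SD, n = 4), so that the difference of 0.95 ± 0.46 (SE), or 1.93-fold, nearly matched that of Egr1 while its 95% interval reached from -0.09 to 1.98. The adjusted p-value in limma was 0.871. Within slide 1 the difference was 0.43, and within slide 2 it was 1.46. With normexp background correction it was 0.60, and with array weights 1.47. The SD of Atf3 exceeded that of 94.8% of tested probes in young and of 89.4% in old CMPs.

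Ier2, a nuclear protein of the early response that is not a classical transcription factor, had levels of -0.54, -0.88, 0.10 and -0.12 on young replicates 3, 4, 5 and 6. For old replicates 2, 3, 4 and 5 the levels were 0.26, 0.13, -0.70 and 0.15. The lowest 3 arrays all belonged to slide 1, as for Junb, and came from both ages. The difference between ages was 0.32 ± 0.29 (SE), with a 95% interval of -0.32 to 0.96, and that between slides was 0.53 with an unadjusted p-value of limma of 0.0568. The difference between ages was 0.15 without young replicate 4 and 0.54 without old replicate 4. The probes of Ier2 (87186214 to 87186273, mm9, minus strand) and Junb (87501881 to 87501940, mm9, minus strand) both lie on chromosome 8 and begin at bases 478 and 707 of their transcripts.

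Nr4a1, an orphan nuclear receptor required for one class of monocytes, had levels of 1.60, 0.57, 0.65 and 0.62 on young replicates 3, 4, 5 and 6. Old replicates 2, 3, 4 and 5 stood at 1.23, 1.01, 0.74 and 0.96. Young replicate 3 was the highest of the 8 arrays, and the other 3 young arrays lay below all 4 old arrays. The difference was 0.12 ± 0.26 (SE), with a 95% interval of -0.45 to 0.70, and without young replicate 3 it was 0.37 with an adjusted p-value in limma of 0.938.

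Array by array, the 10 genes did not move as a single block. Each gene was centred on its mean over the 8 arrays, and the mean of the 10 centred values was -0.11, -0.34, -0.24 and -0.20 on young replicates 3, 4, 5 and 6, and 0.51, 0.37, -0.10 and 0.11 on old replicates 2, 3, 4 and 5. Old replicate 4 had nearly the same mean as young replicate 3, where the centred value of Jun was 1.60. The median of the 10 centred values was -0.37, -0.40, -0.29 and -0.21 on young replicates 3, 4, 5 and 6. On old replicates 2, 3, 4 and 5 it was 0.46, 0.34, -0.16 and 0.12. By the median, each old array lay above every young array. On old replicate 3 all 10 genes lay above their own mean, on old replicate 2 it was 9 genes, on old replicate 5 it was 6 and on old replicate 4 it was 3. Old replicate 2 was the highest array for 5 genes. Young replicate 3 was the highest array for 2 genes, Jun and Nr4a1, and the lowest for 4, Egr1, Egr2, Fosb and Junb.

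**Figure D3:**
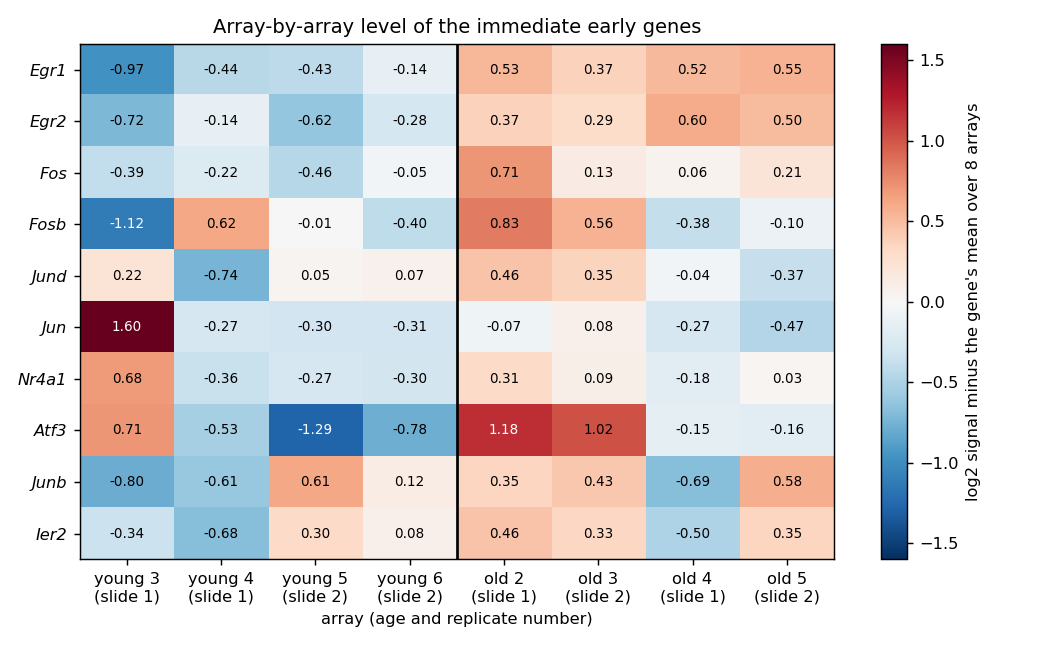
Level of each gene on each array minus the mean of the gene over the 8 arrays (colour and printed value, log2 scale; x axis, arrays by age and replicate with their slide; y axis, genes). Egr1, Egr2 and Fos are negative on all young and positive on all old arrays, Jun stands out on young replicate 3 at 1.60, and Junb and Ier2 share their signs on every array.

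After the mean of each age was removed, Pearson's r over the 8 arrays was above 0.7 for 4 of the 45 pairs and below 0 for 20 pairs. Without young replicate 3 it was above 0.7 for 5 pairs, of which 2, Junb with Ier2 and Jun with Atf3, were also among the first 4. These values are a description, since the arrays share slides and the 75th percentile used for scaling. Jun and Nr4a1 had an r of 0.94, which was 0.42 without young replicate 3. Junb and Ier2 had an r of 0.93, and 0.97 without that array. Atf3 had an r of 0.83 with Jun and 0.83 with Nr4a1, and without young replicate 3 these values were 0.82 and 0.67. Egr1 and Egr2 had an r of 0.66, and 0.34 without that array. Without it, r was 0.82 for Fosb and Atf3, 0.72 for Fos and Nr4a1 and 0.74 for Ier2 and Nr4a1, from -0.013, 0.069 and 0.10 with all arrays. Jun and Egr1 ran in opposite directions, with an r of -0.91 that was -0.45 without young replicate 3. They were 1 of 4 pairs with an r below -0.7. The others were Egr1 with Nr4a1 (-0.82), Jund with Egr2 (-0.75) and Egr2 with Nr4a1 (-0.73). Without young replicate 3 these values were -0.0045, -0.71 and -0.55. Within an age, the median SD of the 10 genes was 0.467 in young CMPs, beside 0.330 over all tested probes, and 0.338 in old CMPs, beside 0.326. Egr1 was among the steadiest probes in old CMPs, with an SD that exceeded 2.90% of the tested probes.

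Among 23131 other genes, those whose level followed the mean of the 10 centred genes most closely included Sept4, Kctd15, Kazald1 and Vezf1. Their Pearson's r over the 8 arrays lay between 0.977 for Vezf1 and 0.982 for Sept4. Unlike for the pairs above, the age means were not removed, so these values also hold the difference between the ages. Over so many genes and 8 arrays, values of this size are a description only. The differences between ages of these genes were 0.54 for Sept4, 1.27 for Kctd15, 0.23 for Kazald1 and 0.62 for Vezf1 on the log2 scale. Mean levels in young CMPs were -3.33 for Sept4, -1.34 for Kctd15, -2.61 for Kazald1 and 2.29 for Vezf1.

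Of 12 relatives of the AP-1 proteins, 8 had a higher and 4 a lower mean in old CMPs, with a median difference of 0.06 on the log2 scale, and 0 were called. Batf2, an interferon-induced bZIP factor, had the highest difference, 0.84 (1.79-fold, adjusted p-value in limma 0.120). The old arrays of Batf2 lay above all young arrays, as they did for 2.86% of all tested probes. Its means were -1.08 ± 0.18 in young and -0.24 ± 0.04 in old CMPs (SD, n = 4). Fosl1, a FOS protein induced later than Fos, came next with 0.51. The lowest were Atf2 at -0.18 and Atf7 at -0.21, closely related CRE-binding proteins.

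Of 36 further early response genes, 33 were tested, 22 had a higher and 11 a lower mean in old CMPs, and 0 were called. Their median difference was 0.18 on the log2 scale, and 7 had an unadjusted p-value of limma below 0.05, beside 6.34% of all tested probes. Gadd45g, a stress-induced gene whose protein binds a MAP kinase kinase kinase, had a difference of 1.26 (2.40-fold, adjusted p-value in limma 0.331), with overlapping arrays. Egr4, the EGR relative beside it at the top, had a difference of 0.78 (adjusted p-value in limma 0.923), also with overlapping arrays. Its means were low, at -4.83 ± 0.98 in young and -4.05 ± 0.19 in old CMPs (SD), and its young arrays spread widely. Klf4, a Krüppel-like factor of monocytes, had the lowest difference, -0.51 (adjusted p-value in limma 0.628), and Dusp5, a phosphatase of ERK, had -0.48. All old arrays of Klf4 lay below the young ones, while 4.43% of all tested probes did not overlap in either direction. Old arrays lay above all young arrays for 3 genes of this list, Ier3, Socs3 and Dusp6, with differences of 0.63, 0.69 and 0.36 (named after their values were seen), as they did for 2.86% of all tested probes. Egr3, Nr4a3 and Ctgf were not tested because they were not well above background on enough arrays.

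Among 17 upstream regulators, 8 had a higher and 9 a lower mean in old CMPs, the median difference was -0.01 and 0 were called. Nab2, a corepressor that binds Egr1 and Egr2 and is itself one of their targets, had the highest difference, 0.45 (1.37-fold, adjusted p-value in limma 0.564). Its means were 2.79 ± 0.14 in young and 3.24 ± 0.07 in old CMPs (SD, n = 4). The old arrays of Nab2 lay above all young arrays, as they did for 2.86% of all tested probes. Crem, a CRE-binding modulator, had a difference of 0.30, and Creb1 and Mapk8, which encodes the kinase JNK1 that phosphorylates Jun, had the lowest at -0.16 and -0.28.

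Of 14 heat shock genes, which respond to protein damage and cell handling, 13 were tested, 9 had a higher and 4 a lower mean in old CMPs, and 0 were called. Their median difference was 0.22. Hspb1 had a difference of 1.32 and Hspa1a of 0.87 (adjusted p-values in limma 0.704 and 0.431), and Hspd1 and Hsp90aa1 were lowest at -0.14 and -0.25. The median of the centred heat shock genes was 0.02, 0.06, -0.24 and -0.09 on young replicates 3, 4, 5 and 6 and 0.23, 0.19, -0.03 and -0.14 on old replicates 2, 3, 4 and 5. Old replicates 2 and 3, which were highest for the mean of the immediate early genes, were also highest here, and the ages overlapped. This order was not particular to the heat shock genes. The same arrays were highest for the median of the AP-1 relatives (0.24 and 0.13) and of the erythroid markers described below (0.83 and 0.31). For the further early response genes, young replicate 3 (0.16) lay above old replicate 3 (0.07). The part of the heat shock genes' shift in the results of the 10 genes was not tested.

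**Figure D4:**
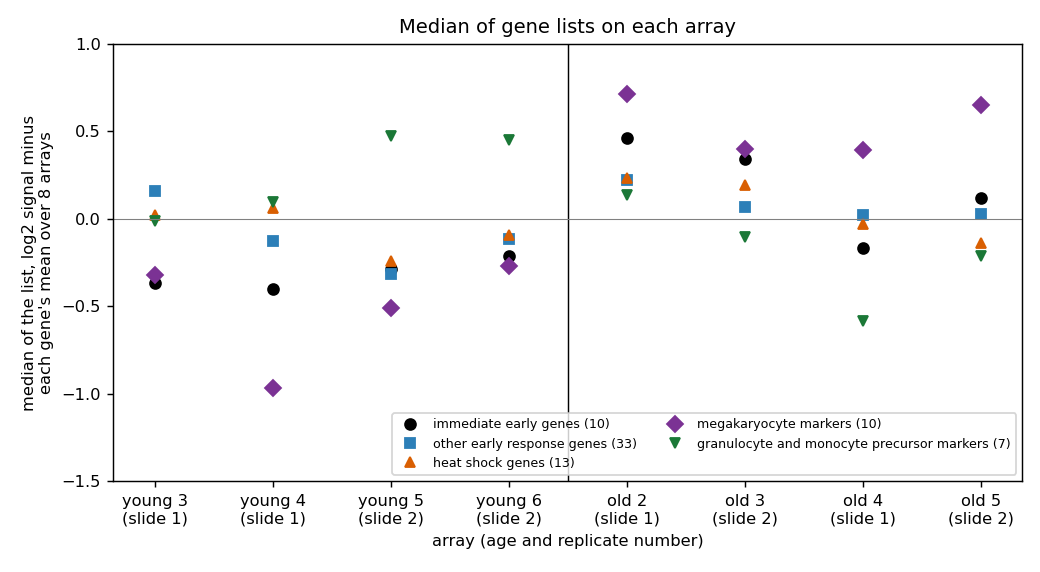
Median of 5 gene lists on each array (y axis, log2 signal minus the mean of each gene over 8 arrays; x axis, arrays by age and replicate with their slide). The medians of the megakaryocyte markers and of the immediate early genes are higher on every old array than on every young array. The immediate early genes and the heat shock genes are highest on old replicates 2 and 3, and the heat shock genes overlap between the ages. The other early response genes are highest on old replicate 2 and young replicate 3.

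Markers of cell types were also compared between the ages, in counts and levels given here for whole lists. Of 7 genes for surface markers in the stain that sorted CMPs and common lymphoid progenitors, 6 were tested. Of these, 1 had a higher and 5 a lower mean in old CMPs, with a median difference of -0.42, and 0 were called. The study sorted CMPs as positive for Kit and Cd34, negative for Sca-1 and low for Fc gamma receptors. Flt3 and Il7r defined its lymphoid progenitors, so the list mixes markers selected for and against. Kit was the marker with a higher mean (difference 0.31). Ly6a, which encodes the stem cell antigen Sca-1, had a difference of -0.73 (adjusted p-value in limma 0.414), with all old arrays below all young arrays. Of all tested probes, 4.43% did not overlap in either direction. The summed level of the 6 markers relative to the 75th percentile, most of it from Cd34, ran from 109 to 141 in young and from 94.0 to 121 in old CMPs. All 10 megakaryocyte markers had a higher mean in old CMPs, 1 of them was called (Gp9, difference 1.21, adjusted p-value in limma 0.0326), against 0.191% of all tested probes, 9 did not overlap between the ages, against 4.43%, and their summed level ran from 96.3 to 193 in young and from 279 to 374 in old CMPs. The 7 granulocyte and monocyte precursor markers tested all had a lower mean in old CMPs, whereas 46.7% of all tested probes had a higher mean. Of these 7 markers, 0 were called, against 0.191% of all tested probes. Old arrays lay below all young arrays for 3 of them, and 4.43% of tested probes did not overlap in either direction. Differences ran from -1.02 for Elane to -0.09 for Cebpa. The summed level of the 7, to which Mpo gave the most, was 848 to 1147 in young and 597 to 727 in old CMPs. The sums of mature neutrophil markers (0.741 to 3.23 in young, 0.818 to 1.99 in old), of macrophage markers (8.74 to 15.1 and 5.45 to 12.0), of erythroid markers (31.8 to 69.1 and 40.8 to 73.8) and of lymphoid markers (12.2 to 16.5 and 11.4 to 14.5) overlapped between the ages. Of the 7 erythroid markers tested, 4 had a higher and 3 a lower mean in old CMPs, and 0 were called. The arrays of 1, Gata1, did not overlap, with a difference of 0.73 (adjusted p-value in limma 0.356) that placed old above young. This held for 2.86% of all tested probes. Only 4 of 8 neutrophil, 4 of 8 macrophage and 4 of 8 lymphoid markers were tested, and Ltf, Ngp, Cd3g, Pax5 and Rag1 were among those not well above background on enough arrays. In sorted bulk samples, a different mix of cells and a different amount of RNA per cell cannot be told apart. The part of these marker shifts in the differences of Egr1, Egr2 and Fos was not tested.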

How the data were processed

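RNA of sorted CMPs was labelled with Cy3 and hybridized to 8 Agilent arrays of 62976 spots. The authors scanned them and, per the labels, used Agilent Feature Extraction 10.7.3.1. The deposited intensity of each spot is background-corrected on a linear scale and is not scaled between arrays. The authors also deposited a table of log2 values, shifted to the 75th percentile and centred, which served as an alternative only. Probe coordinates are mm9.

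Intensities were log2 transformed and the 75th percentile of the array over non-control spots was subtracted. This percentile was 352 to 565 in young and 290 to 518 in old samples, and 55.6% to 63.2% and 57.3% to 60.6% of probes were well above background. Outlier spots (141 to 230 per array) were left out and spots of a probe were averaged. Non-control spots were not saturated (0 on all arrays). Probes well above background on at least 4 of 8 arrays (33432 probes, 23141 genes) were tested two-sided with limma 3.58.1 in R 4.3.3, with Benjamini-Hochberg adjustment over all of them. Over all genes, 58 were called. For a gene in a list, the brightest probe was used. Named were all 10 genes, the called genes of each list with the 2 highest and 2 lowest of each pathway list, and the 5 genes closest to the mean of the 10 genes, of which 1 is not reported here. The 10 genes, the lists and the tests were chosen with earlier results of these data known. No array was left out. The code was tested on simulated data. The number of arrays limits the precision. Alternatives were normexp with an offset of 50, quantile and median scaling, the authors' table, other filters, 1 value per gene and a Welch t-test. The study names that test for 2 unpaired samples, but it names no test for the arrays. Further alternatives were other limma settings, replicate and slide blocks, leaving out each array, and, chosen after seeing the data, keeping outlier spots.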

Additional observations from a re-analysis of the deposited data

Results flagged for a closer look

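Of 22 sets of 4 arrays (each of the 10 genes and their mean, in each age), 4 had 1 array set apart from the other 3 by Dixon's criterion, which chance gives in about 1 of 20 sets. Over all tested probes this share was 5.5% for the young and 4.58% for the old arrays. Young replicate 3 was set apart and highest for Jun (5.07, nearest array 3.20) and for Nr4a1 (1.60, nearest 0.65), as it was for 0.891% of all tested probes. Among old arrays, replicate 3 was lowest for Egr1 (3.76, nearest 3.92), and replicate 4 was lowest for Ier2 (-0.70, nearest 0.13).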

How the results depend on the processing

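Of the 10 genes, 0 were called, as in most alternatives. The exceptions were the unadjusted p-values of the Welch t-test and of limma (2 each, Egr1 and Egr2) and limma with an intensity trend and robust variances (1, Egr1). Leaving out each array gave 0 to 0. Over all genes, 58 were called, against 96 with normexp, 26 without a filter, 29 with probes well above background on at least 1 array and 38 on all 8 arrays. The Welch t-test gave 0 with and 946 without adjustment, and unadjusted limma gave 1401. With trend and robust variances 92 were called, with array weights 278, with slide as a block 36 and without 1 array 25 to 40. The difference of Egr1 stayed between 0.79 and 1.10, of Egr2 between 0.63 and 0.999, of Fos between 0.35 and 0.68 and of Atf3 between 0.60 and 1.47 over 24 alternatives. Directions turned for Jun with array weights (0.029) and without 1 array (-0.52 to 0.11), for Jund without 1 array (-0.013 to 0.36) and for Nr4a1 with the replicate block (-0.038). With the replicate number as a block, 13 genes in all were called and 0 of the 10. Young replicate 6 and old replicate 2 have no array of the same number in the other age. The differences at this setting therefore rest on replicates 3, 4 and 5. The correlations of same-numbered arrays were -0.09, -0.14 and 0.15. Between arrays of different number and age they ran from -0.26 to 0.37. So few values cannot decide whether the numbers pair the arrays. Without 1 array the slide differences ran from -0.33 to 0.37 for Fosb, -0.20 to 0.25 for Jund, -0.18 to 0.055 for Egr2, -0.19 to 0.078 for Fos and -0.39 to 0.028 for Nr4a1. The causes were not tested. Shifting arrays to the median moved the median difference of all tested probes from -0.02 to 0.10, and the 10 genes with it. With 4 arrays per age, the intervals of 7 of the 10 genes include differences of either sign.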
